A study of Mus musculus with 18 samples.

Results

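Genes that mark amacrine and horizontal cells were followed in mouse retina after intravitreal injection of 2 glucocorticoids. The 10 genes were Gad1, Gad2, Slc32a1, Slc6a9, Calb1, Calb2, Prox1, Tfap2a, Tfap2b and Dab1. They were represented by all 28 probe sets that the array platform's annotation gives to 1 of these symbols alone, out of 45101 probe sets on the array. Dab1 had 5 probe sets, Slc32a1 and Calb1 had 4 each, Prox1 and Tfap2a had 3 each, Gad1, Gad2, Tfap2b and Slc6a9 had 2 each, and Calb2 had 1.

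All animals were male C57BL6/J mice, given as 2 months old. Dexamethasone, labelled DEX, triamcinolone, labelled TAA, or the control, labelled BSS, was injected into the vitreous on day 0, and retinal tissue was collected on day 7 or day 30. This made 6 groups (DEX day 7, TAA day 7, BSS day 7, DEX day 30, TAA day 30 and BSS day 30) of 3 biological replicates, with 1 array for each replicate. The labels give no dose and do not say whether a replicate is 1 animal. The comparisons asked what each drug did against the BSS control of the same day, how the drugs differed, and what changed between the days.

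Amacrine and horizontal cells are the inhibitory interneurons of the retina. Horizontal cells feed back onto photoreceptors in the outer plexiform layer, and amacrine cells shape the signals of bipolar and ganglion cells in the inner plexiform layer. Most amacrine cells release GABA or glycine. GABA is made from glutamate by the glutamate decarboxylases of Gad1 and Gad2, and the vesicular transporter of Slc32a1 loads GABA and glycine into synaptic vesicles. The transporter of Slc6a9 takes up glycine and marks glycinergic amacrine cells. Calb1 and Calb2 encode the calcium-binding proteins calbindin and calretinin. Calbindin labels horizontal cells, and both proteins label subsets of amacrine and ganglion cells. Prox1, Tfap2a and Tfap2b encode transcription factors of horizontal and amacrine cells, and Dab1 encodes the adaptor of reelin signalling, found in AII amacrine cells.

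The deposited values are log2 values relative to the median of the 18 arrays, so they show differences between arrays and no expression level. For the same reason, the presence of amacrine and horizontal cells could not be checked against the level of their markers. In retinal tissue as a whole, fewer cells of a type and less RNA per cell cannot be told apart. Most arrays had a similar spread, but TAA day 30 replicate 2 and TAA day 7 replicate 2 were the widest over all probe sets (SD 0.350 and 0.338, against 0.147 to 0.296 on the other 16). On TAA day 30 replicate 2 the Actb control probe sets of the 3' end also stood lowest against those of the 5' end (-0.459, against -0.167 to 0.137 elsewhere), and the rod markers averaged -0.39, against -0.11 to 0.13 elsewhere. The same reading of the Gapdh control probe sets did not set this array apart (-0.086, against -0.159 to 0.284 elsewhere). Lens crystallins, a sign of lens tissue in a sample, varied more than any retinal list, with array means from -1.72 to 3.46. The part of these array properties in the results below was not tested. Residual SDs within groups had a median of 0.17 over the 34945 probe sets of a single gene, and 3 arrays per group limit the precision of every difference.

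**Figure D1:**
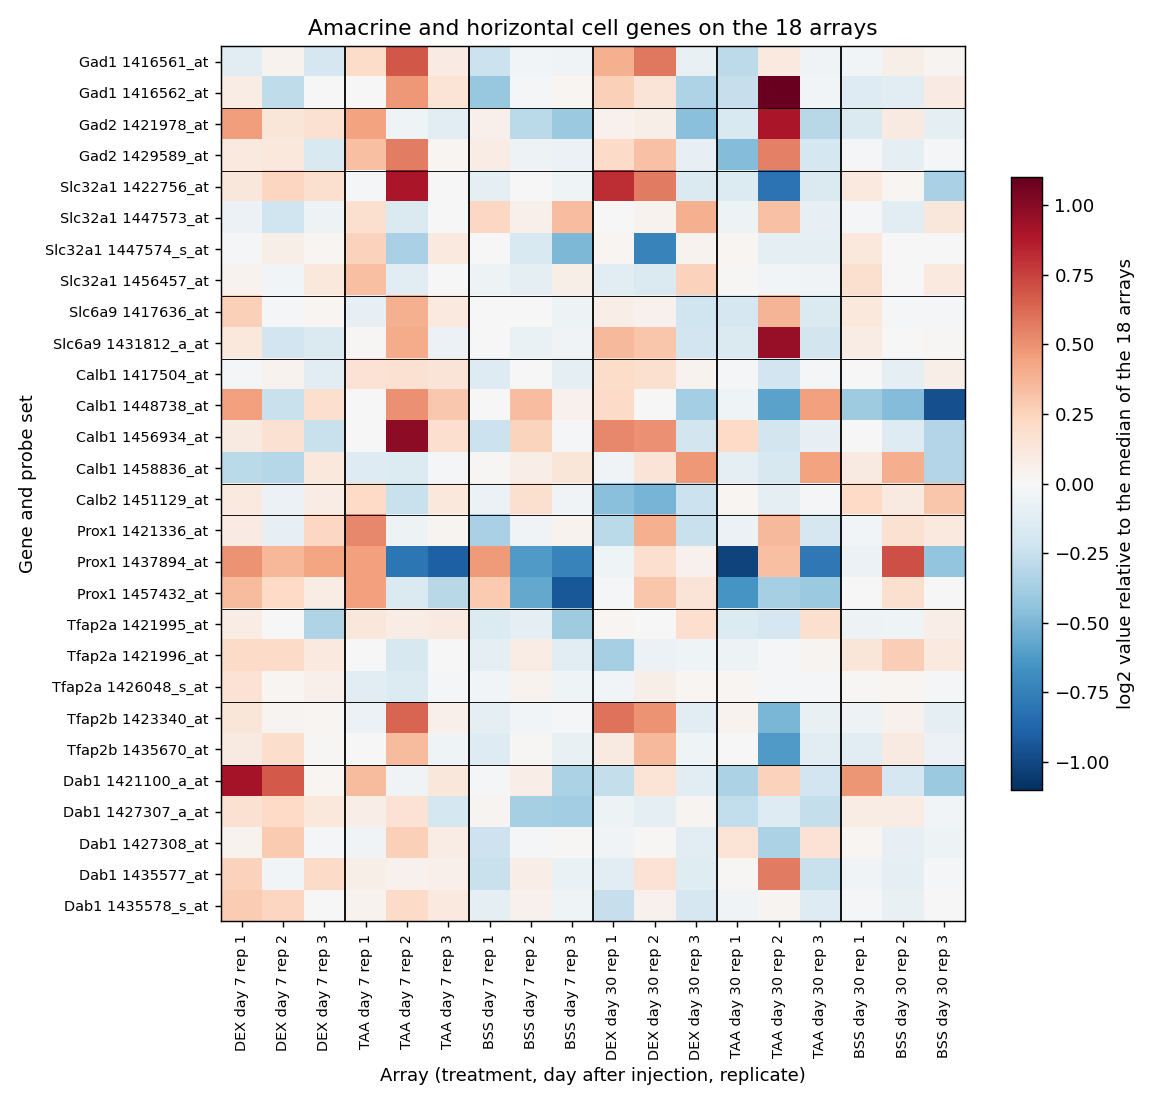
Relative log2 value of each of the 28 probe sets (rows, by gene and role) on each of the 18 arrays (columns, by group and replicate); red is above and blue below the median of the 18 arrays, and the colour scale runs from -1.1 to 1.1. Probe sets of 1 gene often differ, and TAA day 30 replicate 2 holds the highest value of Gad1 1416562_at (1.08) and the lowest of Slc32a1 1422756_at (-0.81).

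At day 7, most probe sets of these genes lay above BSS after either drug, by small amounts. After DEX, 24 of 28 had a difference above 0, with a median of 0.12 on the log2 scale. The background was 48.6% of all probe sets tested above 0 and a median of -0.0041. After TAA, 23 of 28 were above 0 with a median of 0.20, against a background of 49.1% and a median of -0.0030. Both comparisons use the same 3 BSS arrays, so they share whatever those arrays carry. The mean over the 28 probe sets was 0.16, 0.06 and 0.03 on the DEX arrays and 0.13, 0.16 and 0.0048 on the TAA arrays, against -0.06, -0.05 and -0.14 on the BSS arrays. All 6 drug arrays lay above all 3 BSS arrays in this mean. The same held for the array means of bipolar markers and of further amacrine and horizontal cell genes, so it was not particular to these genes.

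Markers of bipolar cells and Müller glia also lay mostly above BSS at day 7. Of 20 bipolar probe sets, 15 lay above BSS after DEX (median 0.15) and 15 after TAA (median 0.16). Of 27 Müller glia probe sets, 22 lay above BSS after DEX (median 0.16) and 22 after TAA (median 0.18). Of 12 probe sets of GABA and glycine handling, 10 lay above BSS after DEX and 9 after TAA. Further amacrine and horizontal cell genes, given below, also lay mostly above BSS. Rod, pigment epithelium and ganglion cell markers did not share this. Of 16 rod probe sets 2 lay above BSS after DEX and 4 after TAA, and of 20 pigment epithelium probe sets 1 after DEX (median -0.48) and 2 after TAA (median -0.18). Of 20 ganglion cell probe sets 11 lay above BSS after DEX (median 0.0096) and 7 after TAA (median -0.02). Array means over the bipolar markers ran from 0.06 to 0.10 after DEX, from 0.00092 to 0.19 after TAA and from -0.12 to -0.02 in BSS. Array means over the Müller glia markers ran from 0.04 to 0.10 after DEX, from -0.15 to 0.47 after TAA and from -0.11 to 0.01 in BSS. Those over the pigment epithelium markers ran from -0.60 to 0.22 after DEX, from -0.26 to 0.03 after TAA and from 0.11 to 0.26 in BSS. Their part in the amacrine and horizontal values was not tested. Prkca, a bipolar gene that encodes a protein kinase C, fell by 0.47 ± 0.11 between day 30 and day 7 in DEX retinas in 1 of its 3 probe sets (1450945_at, adjusted p = 0.0377 by limma). This was 1 of the 20 bipolar probe sets, in a comparison where 2% of all passed. The call was lost when any of 4 of the 6 DEX arrays was left out (adjusted p 0.109 to 0.218), with the compared groups alone (0.118), with arrays scaled to equal spread (0.0989) and among probe sets of higher interquartile range (0.0507).

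At day 30 the probe sets lay on both sides of BSS after either drug. After DEX, 16 of 28 probe sets lay above BSS (median 0.05), beside a background of 44.9% and a median of -0.02. After TAA, 9 of 28 lay above BSS (median -0.05), beside a background of 45.4% and a median of -0.02. Without TAA day 30 replicate 1 the TAA count was 14, and without TAA day 30 replicate 2 it was 6. In BSS itself, 21 of 28 were higher at day 30 than at day 7, against a background of 48.9%. The mean over the 28 probe sets was 0.06, 0.12 and -0.06 on the DEX arrays and -0.14, 0.05 and -0.09 on the TAA arrays, against 0.02, 0.02 and -0.08 on the BSS arrays, and these groups overlapped.

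No single probe set of these genes passed the threshold in any comparison. Among the 308 differences (28 probe sets in 11 comparisons), 0 had an adjusted p under 0.05 by limma, with adjustment over all 34945 probe sets, and 45 had an unadjusted p under 0.05. Of all probe sets, 3.41% to 18.7% had such an unadjusted p, depending on the comparison, and the comparisons share arrays. The smallest adjusted p was 0.0653, for Calb2 between the days after DEX. At day 7, the smallest adjusted p of any of the 28 against BSS was 0.99998 after DEX and 0.99981 after TAA. For comparison, the share of all probe sets that passed was 0% for DEX against BSS at day 7, 0.00286% for TAA against BSS at day 7, and 0% for both drugs at day 30. It was 2% for day 30 against day 7 after DEX. Unadjusted p-values under 0.05 were found for 5 of the 28 after DEX at day 7 (background 3.41%), 4 after TAA at day 7 (3.83%), 3 after DEX at day 30 (11.8%) and 3 after TAA at day 30 (7.03%).

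**Figure D2:**
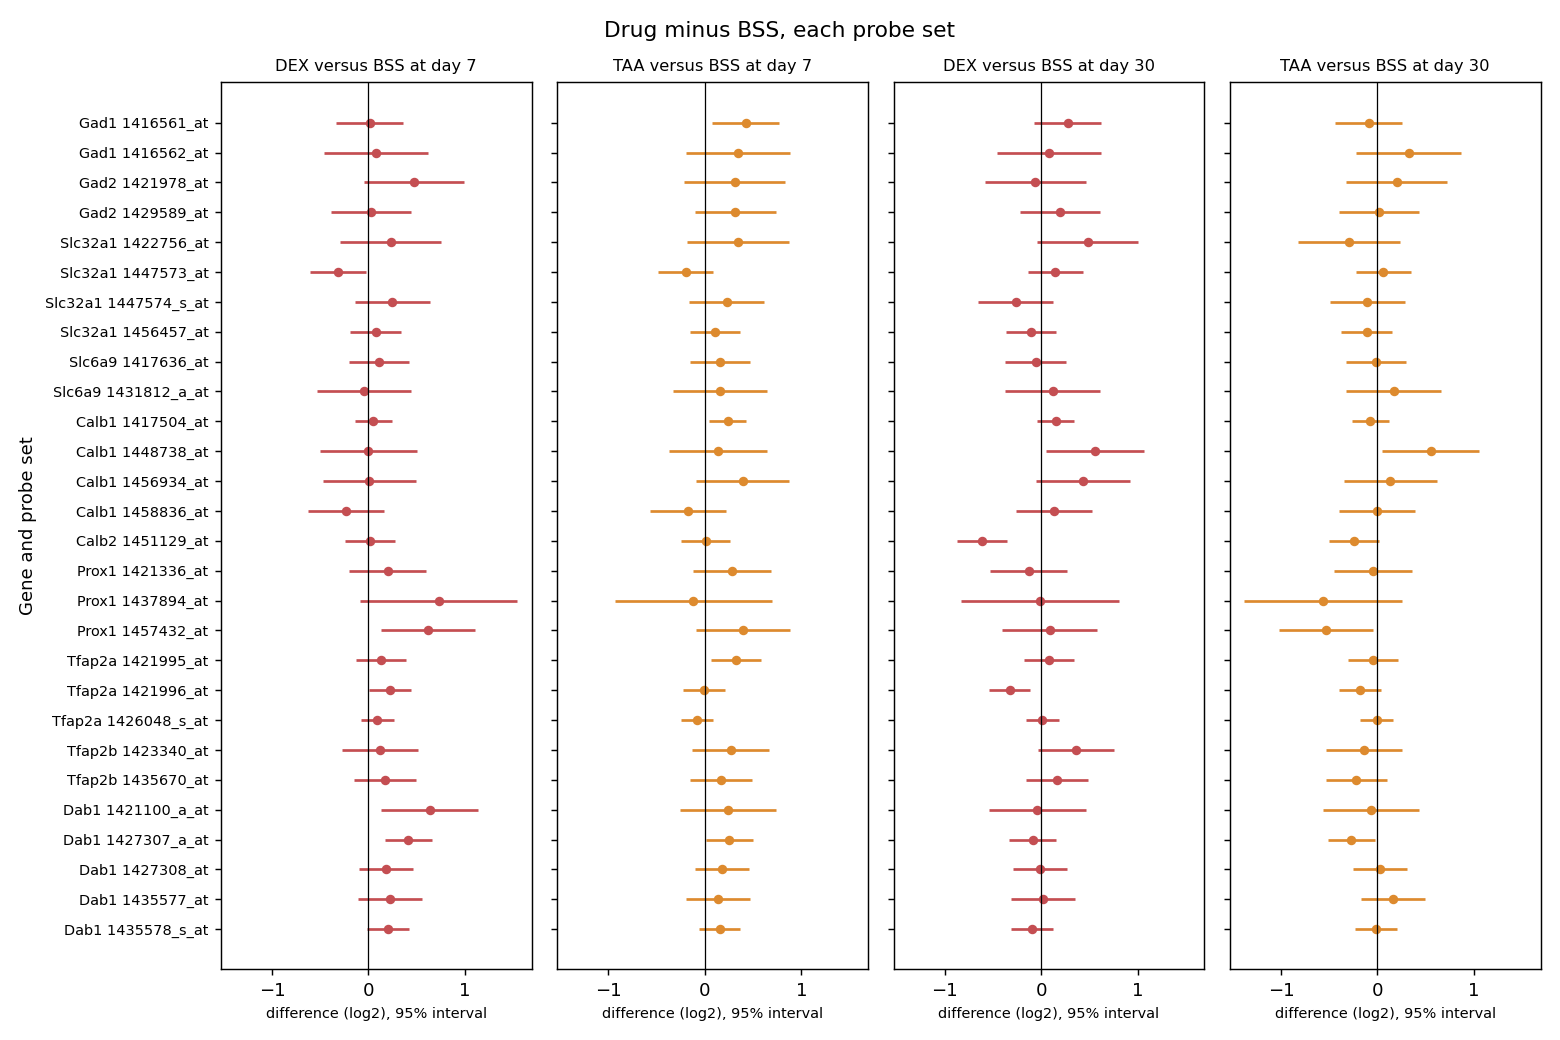
Difference between drug and BSS (log2, horizontal axis) for each probe set (rows), with its 95% interval from the limma fit, after DEX (red) and TAA (orange) at day 7 and day 30. Most points lie right of 0 at day 7 (24 of 28 after DEX, 23 of 28 after TAA), and Calb2 1451129_at lies lowest after DEX at day 30 (-0.61).

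The GABA-synthesising enzymes were measured by 2 probe sets each. For Gad1, probe set 1416561_at read -0.13, 0.04 and -0.18 in DEX and 0.20, 0.68 and 0.09 in TAA at day 7, against -0.23, -0.03 and -0.04 in BSS. The 3 TAA arrays lay above the 3 BSS arrays and above the 3 DEX arrays. TAA exceeded BSS by 0.43 ± 0.16 (SE, 1.34-fold), and by 0.25 without TAA day 7 replicate 2. DEX differed from BSS by 0.01 ± 0.16 and from TAA by -0.41 ± 0.16 (adjusted p = 0.747), or -0.23 without that same array. At day 30 the probe set read 0.39, 0.58 and -0.08 in DEX and -0.28, 0.11 and -0.04 in TAA, against -0.03, 0.06 and 0.03 in BSS. Of the 3 DEX arrays, 2 were high and 1 was not.

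The other Gad1 probe set, 1416562_at, gave TAA against BSS at day 7 as 0.35 ± 0.26 and DEX against BSS as 0.08 ± 0.26. The TAA difference was 0.21 without TAA day 7 replicate 2, and also 0.21 without BSS day 7 replicate 1. Its highest value was 1.08, on TAA day 30 replicate 2, while the other TAA arrays of that day read -0.25 and -0.03. Across the 18 arrays the 2 Gad1 probe sets correlated at r = 0.52.

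Gad2 was above BSS at day 7 in probe set 1421978_at, which read 0.46, 0.13 and 0.17 in DEX and 0.44, -0.05 and -0.12 in TAA, against 0.06, -0.30 and -0.41 in BSS. The DEX arrays did not overlap BSS, with a difference of 0.47 ± 0.25, and the TAA arrays did (0.31 ± 0.25, and 0.13 without TAA day 7 replicate 1). In that DEX comparison the groups did not overlap for 6 of the 28 probe sets in the higher direction (background 7.35%) and 1 in the lower (background 7.08%). Probe set 1429589_at of the same gene differed by 0.03 ± 0.20 after DEX and 0.32 ± 0.20 after TAA (0.19 without TAA day 7 replicate 2). At day 30 neither probe set of Gad2 separated the groups, with differences from -0.06 to 0.20, and on TAA day 30 replicate 2 both read high (0.90 and 0.56).

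The windows upstream of Gad1, Gad2 and Slc32a1 are shown because these genes serve GABA synthesis and vesicle loading. The window of the transcription factor gene Tfap2b is shown beside them for another reason. Its probe set of widest interquartile range and that of Slc32a1 ran together across the arrays (r = 0.84). The Slc32a1 probe set used, 1422756_at, correlated with the others of that gene at r = -0.53 to -0.31. Each window is the 250 bases before the gene's start in RefSeq (build GRCm38.p6, plus strand, 5′ to 3′). Capitals mark the letters GCCNNNGGC, a motif of AP-2 factors such as those of Tfap2a and Tfap2b, and CANNTG, the E-box of basic helix-loop-helix factors. Gad1 is at chr2:70561879-70562128, Gad2 at chr2:22622077-22622326, Slc32a1 at chr2:158610508-158610757 and Tfap2b at chr1:19211804-19212053.
Gad1: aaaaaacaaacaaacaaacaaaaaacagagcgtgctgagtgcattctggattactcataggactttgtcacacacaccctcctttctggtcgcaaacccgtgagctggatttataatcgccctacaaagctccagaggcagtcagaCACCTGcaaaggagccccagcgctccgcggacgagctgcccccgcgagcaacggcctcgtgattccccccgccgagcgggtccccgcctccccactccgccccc
Gad2: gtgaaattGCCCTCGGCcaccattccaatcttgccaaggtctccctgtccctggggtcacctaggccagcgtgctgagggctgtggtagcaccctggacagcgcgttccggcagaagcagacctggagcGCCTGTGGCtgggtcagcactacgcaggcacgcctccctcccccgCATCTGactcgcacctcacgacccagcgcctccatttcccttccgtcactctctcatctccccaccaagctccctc
Slc32a1: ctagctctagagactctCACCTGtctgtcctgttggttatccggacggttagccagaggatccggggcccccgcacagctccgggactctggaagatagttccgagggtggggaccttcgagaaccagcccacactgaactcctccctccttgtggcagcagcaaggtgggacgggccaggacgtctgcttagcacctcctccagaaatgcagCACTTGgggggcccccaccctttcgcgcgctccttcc
Tfap2b: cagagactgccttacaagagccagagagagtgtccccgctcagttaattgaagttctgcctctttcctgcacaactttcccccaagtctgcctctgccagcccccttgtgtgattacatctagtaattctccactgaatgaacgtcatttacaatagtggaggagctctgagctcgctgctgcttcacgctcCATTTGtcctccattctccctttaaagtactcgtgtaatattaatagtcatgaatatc

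Of the 10 genes, 8 matched the RefSeq promoter table, with 13 windows, and Calb1 and Calb2 did not. The palindromic glucocorticoid receptor element, searched with its 2 arms AGAACA and TGTTCT set 3 bases apart, was in 0 of the 13 windows and in 0.00913% of all 32851 windows of the table. The arm AGAACA alone, searched on both strands, was in 0 of 13 and in 16.1% of all windows. GCCNNNGGC was in 1 of 13, the Gad2 window, at bases 9 to 17 and 130 to 138, and in 13.7% of all windows. CANNTG was in 8 of 13 and in 66.2% of all. The motifs did not overlap in these windows, both of the printed ones read the same on either strand, and a match or its absence in this window is a description of the letters alone.

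Slc32a1 was read differently by its 4 probe sets. Probe set 1422756_at stood at 0.12, 0.23 and 0.18 in DEX and -0.02, 0.89 and 0.0031 in TAA at day 7, against -0.11, -0.0031 and -0.05 in BSS. DEX lay above BSS without overlap by 0.23 ± 0.25, and TAA rested on replicate 2 (0.34 ± 0.25, and 0.04 without it). At day 30 the same probe set read 0.81, 0.57 and -0.16 in DEX and -0.15, -0.81 and -0.16 in TAA, against 0.11, 0.02 and -0.36 in BSS. Here DEX exceeded TAA by 0.78 ± 0.25 (adjusted p = 0.141), and BSS by 0.48 ± 0.25. Without DEX day 30 replicate 3 the difference from TAA was 1.06 (adjusted p = 0.0164, in a fit that called 8.01% of all probe sets), and without TAA day 30 replicate 2 it was 0.56. The difference from BSS was 0.28 without DEX day 30 replicate 1 and 0.77 without DEX day 30 replicate 3.

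The other Slc32a1 probe sets did not follow this pattern. Probe set 1447573_at was lower in DEX than in BSS at day 7, with -0.06, -0.22 and -0.05 in DEX against 0.22, 0.05 and 0.34 in BSS, a difference of -0.32 ± 0.14. It correlated with 1422756_at at r = -0.53 over the 18 arrays. Probe sets 1447574_s_at and 1456457_at differed from BSS at day 7 by 0.25 ± 0.18 and 0.07 ± 0.12 after DEX, and by 0.23 ± 0.18 and 0.10 ± 0.12 after TAA. For DEX against TAA at day 30 these 3 probe sets gave 0.09 ± 0.14, -0.16 ± 0.18 and 0.01 ± 0.12. A direction for Slc32a1 therefore depends on the probe set read.

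Slc6a9, the glycine transporter, did not separate the drug groups from BSS. Probe set 1417636_at gave 0.11 ± 0.15 after DEX and 0.16 ± 0.15 after TAA at day 7, and -0.06 ± 0.15 and -0.02 ± 0.15 at day 30. Its 95% interval after DEX at day 7 was -0.20 to 0.42, which spans changes in both directions. Probe set 1431812_a_at gave -0.05 ± 0.23 and 0.16 ± 0.23 at day 7, and 0.12 ± 0.23 and 0.17 ± 0.23 at day 30. Its highest value was 0.96, on TAA day 30 replicate 2, where the other TAA arrays read -0.16 and -0.20. The 2 probe sets correlated at r = 0.78.

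**Figure D3:**
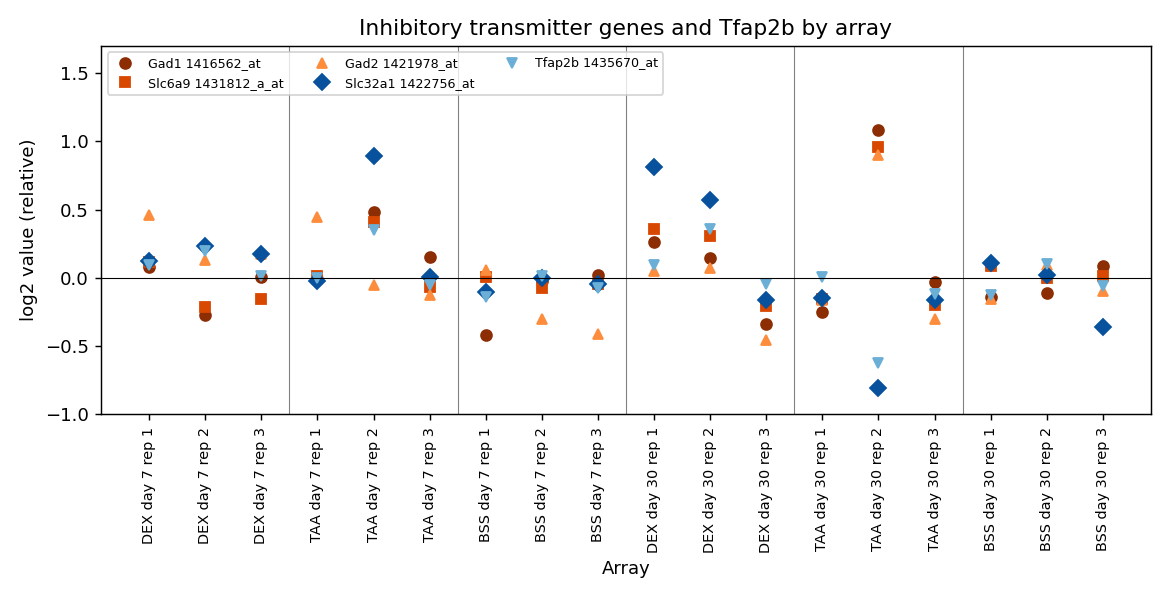
Relative log2 values on each array (horizontal axis, by group and replicate) for the widest-ranging probe sets of Gad1, Slc6a9, Gad2, Slc32a1 and Tfap2b. On TAA day 30 replicate 2, Gad1 (1.08), Slc6a9 (0.96) and Gad2 (0.90) are at their highest while Slc32a1 (-0.81) and Tfap2b (-0.63) are at their lowest.

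How the inhibitory transmitter genes varied together was read over all 18 arrays, that one included. There, the widest-ranging probe sets of Gad1 and Slc6a9 correlated at r = 0.88, those of Gad2 and Slc6a9 at 0.65, and those of Gad1 and Slc32a1 at -0.07. Without TAA day 30 replicate 2 these coefficients were 0.72, 0.30 and 0.65, so the last 2 rested on that array. The arrays share groups and hybridisation, so these coefficients are descriptions without a test. Over all 45 pairs of the 10 genes the median was -0.0095, with 22 pairs above 0 and a range from -0.52 (Calb2 with Slc32a1) to 0.88.

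Calb2, which encodes calretinin, had the difference of smallest unadjusted p of any of these genes against BSS. Its probe set 1451129_at read -0.46, -0.51 and -0.23 in DEX and 0.02, -0.11 and -0.02 in TAA at day 30, against 0.22, 0.10 and 0.31 in BSS. All 3 DEX arrays were below all TAA arrays, and all TAA arrays were below all BSS arrays. DEX differed from BSS by -0.61 ± 0.12 (0.655-fold, 95% interval -0.87 to -0.35), which ranked 8 of 34945 probe sets by p and did not pass (adjusted p = 0.357). TAA differed from BSS by -0.25 ± 0.12 (adjusted p = 0.727). At day 30 the groups did not overlap in the lower direction for 2 of the 28 probe sets after DEX (background 9.28%) and 4 after TAA (background 7.11%), and in the higher direction for 1 after DEX (background 5.26%) and 0 after TAA (background 5.88%).

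At day 7 Calb2 did not separate the groups. It read 0.11, -0.06 and 0.08 in DEX and 0.22, -0.25 and 0.12 in TAA, against -0.07, 0.18 and -0.04 in BSS. The differences were 0.02 ± 0.12 and 0.01 ± 0.12. Between the days DEX retinas differed by -0.44 ± 0.12 (adjusted p = 0.0653), TAA retinas by -0.07 ± 0.12 and BSS retinas by 0.19 ± 0.12. The change of the DEX effect between the days was -0.63 ± 0.17 (adjusted p = 0.458). Without DEX day 30 replicate 3, DEX against BSS at day 30 was -0.69 with an adjusted p of 0.0208, and day 30 against day 7 after DEX was -0.53 with an adjusted p of 0.0244. Leaving out that array raised the calls over all probe sets as well, to 5.31% for DEX against BSS at day 30 and 7.41% for day 30 against day 7 after DEX. In the fits that left out another array of the comparison, DEX against BSS at day 30 lay between -0.67 and -0.56, and none of them passed. Calb2 is also expressed by ganglion cells, whose marker means on the day 30 arrays ran from -0.21 to 0.05 in DEX and from -0.26 to -0.13 in TAA, against -0.13 to 0.05 in BSS.

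Calb1, the calbindin gene of horizontal cells, gave a tight reading in probe set 1417504_at. At day 7 it read -0.02, 0.04 and -0.12 in DEX and 0.16, 0.17 and 0.15 in TAA, against -0.15, -0.0011 and -0.10 in BSS. The TAA arrays lay above all others of that day, with a difference from BSS of 0.24 ± 0.09, and it was 1 of 3 probe sets without overlap in the higher direction (background 4.48%), beside 1 in the lower (background 5.5%). At day 30 the order of the drugs was turned, with 0.20, 0.18 and 0.04 in DEX and -0.03, -0.21 and -0.02 in TAA, against 0.0011, -0.10 and 0.06 in BSS. DEX exceeded TAA by 0.22 ± 0.09 (adjusted p = 0.222) at day 30, and the same difference was -0.19 ± 0.09 at day 7.

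A second Calb1 probe set, 1448738_at, was low in BSS at day 30. It read 0.21, -0.0018 and -0.38 in DEX and -0.04, -0.59 and 0.45 in TAA at that day, against -0.39, -0.48 and -0.97 in BSS. DEX exceeded BSS by 0.56 ± 0.24 (adjusted p = 0.396) with a narrow gap between the groups, and TAA by 0.55 ± 0.24 with overlap, or 0.30 without TAA day 30 replicate 3. BSS retinas differed between day 30 and day 7 by -0.74 ± 0.24 (adjusted p = 0.592). The remaining probe sets gave 0.43 ± 0.23 (1456934_at, and 0.67 without DEX day 30 replicate 3) and 0.13 ± 0.19 (1458836_at) for DEX against BSS at day 30. Probe set 1458836_at correlated with the other 3 at r = -0.21 to 0.08, while those 3 correlated with each other at 0.26 to 0.67, the lowest of which was 0.13 without TAA day 30 replicate 2.

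**Figure D4:**
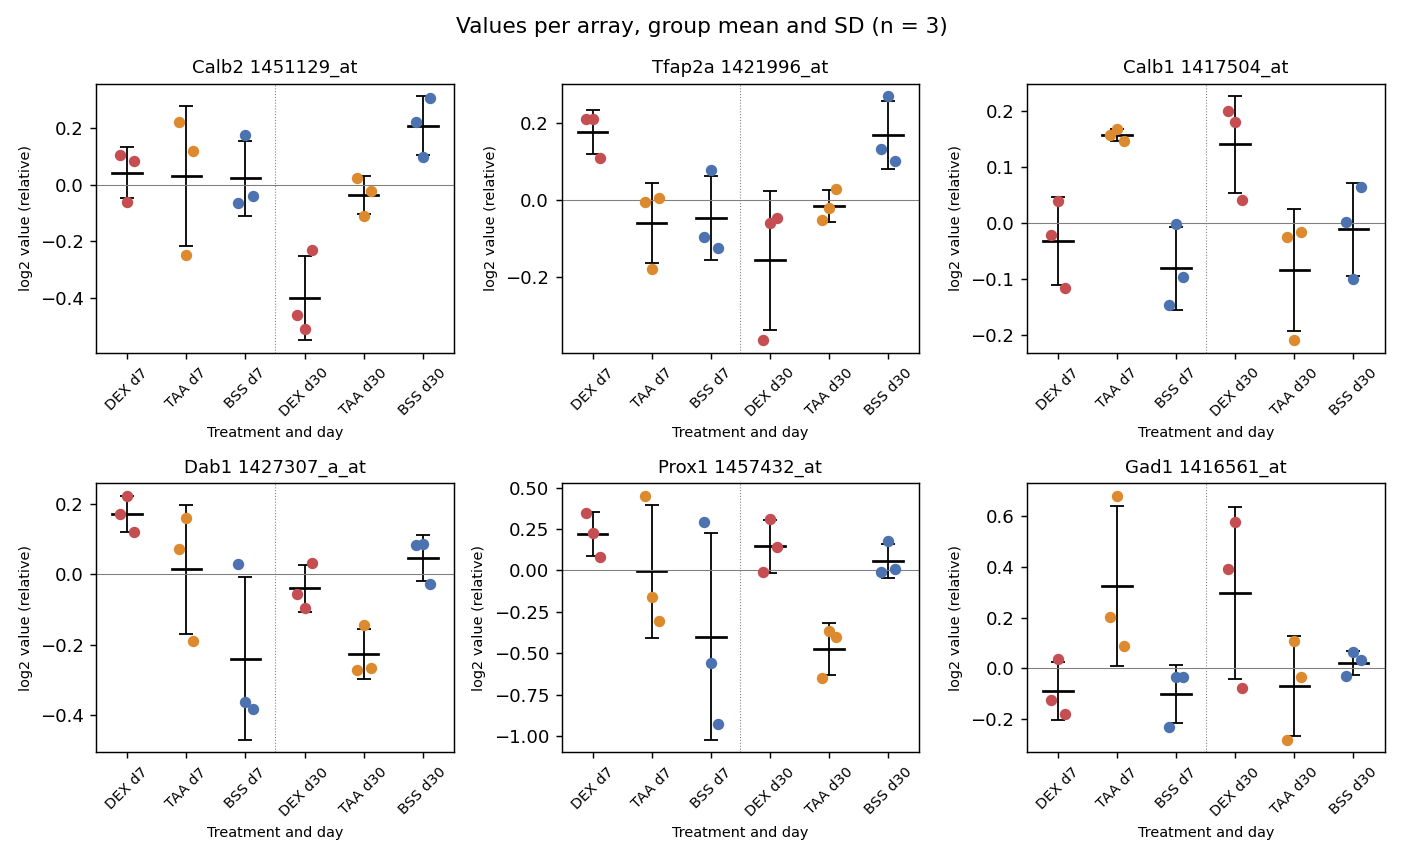
Relative log2 value (vertical axis, scales differ between panels) of 6 probe sets in the 6 groups; points are the 3 arrays of a group, bars the group mean and SD, with DEX in red, TAA in orange and BSS in blue. The DEX day 30 arrays are the lowest group for Calb2 (-0.46, -0.51 and -0.23), and the TAA day 7 arrays of Calb1 1417504_at lie between 0.15 and 0.17.

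Among the transcription factors, Prox1 was wide within groups. Prox1 encodes a homeodomain factor of horizontal cells and AII amacrine cells. Probe set 1457432_at read 0.35, 0.22 and 0.08 in DEX and 0.45, -0.16 and -0.31 in TAA at day 7, against 0.29, -0.56 and -0.93 in BSS. Of the BSS arrays, 1 was as high as the DEX arrays and the other 2 were far below. DEX differed from BSS by 0.62 ± 0.23, by 0.96 without BSS day 7 replicate 1 and by 0.35 without BSS day 7 replicate 3. At day 30 it read -0.01, 0.31 and 0.14 in DEX and -0.65, -0.37 and -0.40 in TAA, against -0.0072, 0.18 and 0.0072 in BSS. The TAA arrays were below both other groups, with differences of -0.53 ± 0.23 from BSS (adjusted p = 0.698), while DEX against TAA gave 0.62 ± 0.23 (adjusted p = 0.191).

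The change of the TAA effect on this probe set between the days was -0.93 ± 0.33 (adjusted p = 0.836). Prox1 probe set 1437894_at, which had the widest interquartile range of all 28 (1.12), correlated with it at r = 0.78. It read 0.49, 0.36 and 0.44 in DEX and 0.45, -0.80 and -0.90 in TAA at day 7, against 0.47, -0.63 and -0.73 in BSS. Replicate 1 was thus high in all 3 groups, and replicates 2 and 3 were low in TAA and BSS. DEX against TAA at day 7 was 0.84 ± 0.39 (adjusted p = 0.792), and 1.28 without TAA day 7 replicate 1. The third probe set, 1421336_at, gave 0.20 ± 0.19 after DEX and 0.29 ± 0.19 after TAA at day 7.

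Tfap2a encodes a transcription factor of the AP-2 family that amacrine and horizontal cells keep in the adult retina. Its probe set 1421996_at read 0.21, 0.21 and 0.11 in DEX and -0.0055, -0.18 and 0.0055 in TAA at day 7, against -0.10, 0.08 and -0.12 in BSS. The DEX arrays lay above both other groups, with a difference from BSS of 0.23 ± 0.10. At day 30 it read -0.37, -0.06 and -0.05 in DEX and -0.05, -0.02 and 0.03 in TAA, against 0.13, 0.27 and 0.10 in BSS. Both drug groups were now below BSS without overlap, DEX by -0.33 ± 0.10 (adjusted p = 0.357) and TAA by -0.19 ± 0.10. The change of the DEX effect between the days was -0.55 ± 0.15 (adjusted p = 0.458).

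Other Tfap2a probe sets did not show this turn. Probe set 1421995_at gave 0.13 ± 0.12 after DEX at day 7 and 0.08 ± 0.12 at day 30, and 0.32 ± 0.12 after TAA at day 7 (0.13, 0.09 and 0.10 in TAA, against -0.15, -0.10 and -0.39 in BSS). Probe set 1426048_s_at had the narrowest interquartile range of all 28 (0.05), and its 4 differences from BSS lay between -0.08 and 0.09. Across the 18 arrays, 1421996_at correlated with these 2 at r = 0.03 and 0.53.

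Tfap2b, the related AP-2 gene, was read alike by its 2 probe sets (r = 0.84). Probe set 1423340_at read 0.60, 0.50 and -0.13 in DEX and 0.04, -0.51 and -0.08 in TAA at day 30, against -0.06, 0.05 and -0.11 in BSS. The high values were on 2 DEX arrays and the low value on TAA day 30 replicate 2. DEX exceeded TAA by 0.50 ± 0.19 (adjusted p = 0.192), by 0.73 without DEX day 30 replicate 3 (adjusted p = 0.0216, in the same fit that called 8.01% of all probe sets) and by 0.34 without TAA day 30 replicate 2. Probe set 1435670_at gave 0.38 ± 0.15 for the same comparison (adjusted p = 0.213), or 0.19 without TAA day 30 replicate 2. At day 7 the DEX arrays lay just above BSS in both (0.12 ± 0.19 and 0.17 ± 0.15).

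Dab1, the reelin adaptor, was above BSS at day 7 in all 5 probe sets after both drugs. Probe set 1427307_a_at read 0.17, 0.22 and 0.12 in DEX and 0.07, 0.16 and -0.19 in TAA, against 0.03, -0.36 and -0.38 in BSS. DEX did not overlap BSS, with a difference of 0.41 ± 0.12 (1.33-fold) that ranked 40 of 34945 by p, and TAA did (0.25 ± 0.12). Probe set 1421100_a_at read 0.92, 0.68 and 0.02 in DEX at day 7, against -0.02, 0.08 and -0.35 in BSS, a difference of 0.63 ± 0.24 carried by 2 of the 3 arrays. The other 3 probe sets gave 0.18 ± 0.13, 0.22 ± 0.16 and 0.20 ± 0.10 after DEX and 0.18 ± 0.13, 0.14 ± 0.16 and 0.15 ± 0.10 after TAA. The mean of the 5 probe sets differed from BSS by 0.33 ± 0.09 after DEX at day 7.

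At day 30 the Dab1 probe sets lay on both sides of BSS. Probe set 1427307_a_at read -0.06, -0.10 and 0.03 in DEX and -0.27, -0.14 and -0.27 in TAA, against 0.08, 0.09 and -0.03 in BSS. TAA lay below BSS without overlap by -0.27 ± 0.12 (adjusted p = 0.698). The change of the drug effect between the days was -0.50 ± 0.16 for DEX (adjusted p = 0.478) and -0.53 ± 0.16 for TAA (adjusted p = 0.772). BSS itself differed by 0.29 ± 0.12 between day 30 and day 7, with 2 of its 3 day 7 arrays low. The other 4 probe sets gave -0.09 to 0.02 after DEX and -0.07 to 0.16 after TAA at day 30.

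Both drugs are fluorinated synthetic glucocorticoids, and they differ on the D ring. With no dose in the labels, the 2 drugs were set side by side at each day without matched doses, as 1 pair at 2 days. At day 7, 13 of 28 probe sets were higher in DEX than in TAA (background 50.2%), and at day 30, 17 of 28 (background 48.8%). No probe set of these genes passed at either day, and 4 and 7 had an unadjusted p under 0.05 (backgrounds 6.28% and 16.9%). Without overlap, 2 were higher (background 6.99%) and 3 lower (background 5.63%) in DEX at day 7, and 3 were higher (background 5.65%) and 1 lower (background 8.49%) at day 30. For Calb2 the difference was -0.36 ± 0.12 at day 30 (adjusted p = 0.153), or -0.45 without DEX day 30 replicate 3 (adjusted p = 0.0447), and 0.01 ± 0.12 at day 7, with a 95% interval of -0.25 to 0.27. Gad1 1416561_at gave 0.37 ± 0.16 for DEX against TAA at day 30 and was not called. Without DEX day 30 replicate 2 it was 0.23 (adjusted p = 0.662), and without DEX day 30 replicate 3 it was 0.56 (adjusted p = 0.0400), in the fit that called 8.01% of all probe sets.

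Day 30 was also compared with day 7 within each treatment. In DEX retinas 12 of 28 probe sets were higher at day 30 than at day 7 (background 47.2%), with a median of -0.07. In TAA retinas 8 of 28 were higher (background 48.3%), with a median of -0.13, and in BSS 21 of 28, with a median of 0.06. None passed in DEX, where 5 had an unadjusted p under 0.05 (background 18.7%), in TAA, where 4 had (background 12.4%), or in BSS, where 2 had (background 7.1%) and 0.0143% of all probe sets passed.

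Without overlap between the days, 2 probe sets were higher (background 7.85%) and 5 lower (background 17.1%) at day 30 in DEX. In TAA 1 was higher (background 5.99%) and 4 were lower (background 6.8%), and in BSS 4 were higher (background 9.61%) and 1 was lower (background 12%). After TAA the largest of these was Slc32a1 1422756_at at -0.66 ± 0.25 (adjusted p = 0.331), or -0.36 without TAA day 7 replicate 2. After DEX, Dab1 1435578_s_at read -0.25, 0.05 and -0.18 at day 30 against 0.28, 0.24 and 0.0023 at day 7, a difference of -0.30 ± 0.10 (adjusted p = 0.125). Its days overlapped, so it was not among the 5 lower without overlap.

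The change of the TAA effect between the days was below 0 for most probe sets, while the share for DEX was near the background. This change was above 0 for 11 of 28 (39.3%) for DEX (background 46.3%, median -0.12) and for 6 of 28 (21.4%) for TAA (background 47.2%, median -0.26). No change passed, and 4 probe sets for each drug had an unadjusted p under 0.05 (backgrounds 8.45% and 5.83%).

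Other genes of GABA and glycine handling were compared for context. Of the 10 listed genes, 8 were measured by 12 probe sets, and 0 passed against BSS at either day. Slc38a1 encodes a transporter that brings glutamine into neurons. Its probe set 1415903_at read -0.23, -0.40 and -0.32 in DEX and -0.23, -0.06 and -0.17 in TAA at day 30, against 0.11, 0.31 and 0.18 in BSS, differences of -0.52 ± 0.11 (adjusted p = 0.357) and -0.35 ± 0.11 (adjusted p = 0.671). Day 30 DEX arrays were also below the day 7 DEX arrays (0.25, 0.24 and 0.16), and here the gene fell by 0.54 ± 0.11 (adjusted p = 0.0286). This was 1 of the 12 probe sets, in a comparison where 2% of all passed. The call was lost when any of 4 of the 6 DEX arrays was left out (adjusted p 0.0873 to 0.158, differences -0.58 to -0.50) or when the compared groups were fitted alone (adjusted p = 0.0675), and the second probe set of the gene, 1454764_s_at, gave 0.08 ± 0.10.

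In the same list, the GABA transporter gene Slc6a11 was at 0.57 ± 0.17 after TAA at day 7, Slc6a13, another GABA transporter gene, at 0.84 ± 0.26 after TAA at day 30, the glycine transporter gene Slc6a5 at 0.23 ± 0.12 after DEX at day 7, and Abat, the GABA transaminase gene, at 0.30 ± 0.17 after DEX at day 30. Each value is of 1 probe set, picked for its small p, and any other probe sets of the gene are not given. Array means over the list were 0.08, 0.30 and -0.0088 on the TAA day 30 arrays, the highest on replicate 2. The median over the 12 probe sets of the list was 0.08 after each drug at day 7, and -0.0028 after DEX and 0.09 after TAA at day 30. Medians of all probe sets in these comparisons lay between -0.02 and -0.0030.

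Further amacrine genes were measured by 40 probe sets of 20 genes out of 22 listed, and 0 passed by limma in any of the 11 comparisons, with 2 at an unadjusted p under 0.05 after each drug at day 7, 6 after DEX and 1 after TAA at day 30. At day 7, 27 of 40 lay above BSS after DEX (median 0.05) and 28 of 40 after TAA (median 0.08). At day 30 these numbers were 28 (median 0.12) and 17 (median -0.02). Each gene value below is of 1 probe set, picked for its small p, and any other probe sets of the gene are not given. The homeobox gene Barhl2 was at 0.50 ± 0.15 and Lamp5, a lysosome-associated membrane protein gene, at 0.59 ± 0.18 after TAA at day 7. Array means over this list were 0.0050, 0.24 and 0.04 on the TAA day 7 arrays, the highest on replicate 2. Fits of these 2 genes without that array are not given. Elavl3, a neuronal RNA-binding protein gene, was at 0.44 ± 0.19 and Ebf1 at 0.23 ± 0.11 after DEX at day 7. At day 30, Stx1a, which encodes the synaptic vesicle fusion protein syntaxin, was at -0.52 ± 0.14 and the homeobox gene Meis2 at 0.46 ± 0.16 after DEX, and Nhlh2 was at -0.54 ± 0.21 and the choline transporter gene Slc5a7 at -0.30 ± 0.16 after TAA.

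Further horizontal cell genes were measured by 12 probe sets of 6 genes out of 7 listed, and 0 passed in any comparison. At day 7, 10 of 12 lay above BSS after DEX (median 0.11) and 9 after TAA (median 0.08), and at day 30, 4 after DEX (median -0.08) and 2 after TAA (median -0.13). Onecut2, a transcription factor of horizontal cells, was at 0.30 ± 0.10 after DEX and 0.24 ± 0.10 after TAA at day 7 in probe set 1460044_at, and Lhx1, the LIM homeobox gene that positions horizontal cells, was at 0.25 ± 0.12 after DEX. Sall3 was at -0.23 ± 0.11 after TAA at day 7 and at -0.35 ± 0.11 after DEX at day 30, where Onecut1 was at 0.31 ± 0.13. After TAA at day 30, Septin4 was at -0.36 ± 0.17 and Onecut2 at -0.17 ± 0.10 in another probe set, 1440005_at.

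The genes whose profile was most like each member over the 18 arrays were not other members. For Slc32a1 1422756_at they were Zfp804a (r = 0.97), Fmn2 (0.96) and Slc35f1 (0.96), for Tfap2b 1435670_at Kcnc1 (0.95), Garem1 (0.95) and Rev3l (0.94), and for Gad1 1416562_at Selenot (0.94), Oga (0.93) and Mtmr6 (0.93). Those of Calb2 were Ccnt1 (0.92), Pcsk1n (0.91) and Ptpa (0.91), and those of Prox1 1437894_at were Kif3b (0.93), Dnajc28 (0.92) and Cpeb3 (0.92). They were picked from the 34945 probe sets measured on arrays that share groups and spread, and the coefficients are descriptions.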

How the data were processed

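Retinal RNA of 18 replicates was hybridised to Affymetrix arrays, 3 per group, from biotinylated cRNA, per the labels' protocols. The authors processed the arrays with RMA, per the submitters' processing notes, and deposited values on a log2 scale; the version, filters and genome build are not given in the sources used here. The log base and direction follow RMA's convention. Each of the 45101 probe sets has a median within 1e-06 of 0, so the values are centred and no filter on level was possible.

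Of the 45101 probe sets, 64 controls, 932 that name several genes and 9160 unnamed here were left out. The other 34945 (18193 genes) entered a limma fit (limma 3.58.1, R 4.3.3) of all 18 arrays with the 6 groups as coefficients (12 residual and 5.30 prior degrees of freedom), 11 contrasts, and Benjamini-Hochberg adjustment over all 34945 with a threshold of 0.05. The ± values are standard errors. All members are named, with the 2 listed genes of smallest p per list and drug comparison, listed genes that passed, and the 3 most correlated genes of a member. Members and lists were chosen with earlier results of these data known. In 5 simulated draws for DEX against BSS at day 7, 200 probe sets per draw were given a change. The fit called 28.4% of those given a log2 change of 0.5, 87.8% at a change of 1 and 97.9% at a change of 2. These rates are not specific to the 28 probe sets. Most of the 28 had a residual SD above the median of 0.17 over all probe sets (range 0.05 to 0.56). Alternatives were array weights, equal array spread, a replicate block, robust moderation, the compared groups alone, other probe set choices and leaving out each array. Promoter windows are from RefSeq (GRCm38.p6).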

Additional observations from a re-analysis of the deposited data

Results flagged for a closer look

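Readings of 2 probe sets met the criterion of opposite directions in paired comparisons, where every array of one contrast lay on one side and every array of the other on the opposite side. The share of all probe sets that meet this criterion was not counted, so the number cannot be judged against a background. In single comparisons, 4.48% to 17.1% of all probe sets did not overlap in a given direction. Tfap2a 1421996_at was higher than BSS after DEX at day 7 (0.23) and lower at day 30 (-0.33), without overlap at either day. Read by day, the same values were lower at day 30 than at day 7 in DEX retinas (-0.34) and higher in BSS retinas (0.22). The test of this difference gave -0.55 ± 0.15 and did not pass (adjusted p = 0.458 by limma). Calb1 1417504_at was higher at day 30 than at day 7 in DEX retinas (0.17) and lower in TAA retinas (-0.24), and this difference between the drugs was not tested. Its DEX days were barely apart, with a lowest day 30 value of 0.0410 and a highest day 7 value of 0.0400. Calb1 1456934_at also had opposite directions (0.27 in DEX and -0.41 in TAA), with overlap between the days in both drugs, and its TAA difference was -0.12 without TAA day 7 replicate 2. The other 2 probe sets of Calb1 had 1 direction in both drugs. Tfap2a 1421995_at did not show either reading, and 1426048_s_at had the signs of the second alone, with smaller values (-0.06 in DEX retinas and 0.02 in BSS retinas).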

How the results depend on the processing

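The 18-array fit called 0 of the 28 probe sets in each of the 11 comparisons. Weighting arrays by their agreement with their group, which is no independent measure of quality, called 1 for DEX against BSS at day 7 (beside 0.157% of all probe sets), 7 for DEX against BSS at day 30 (14.9%), 1 and 5 for DEX against TAA at day 7 (3.35%) and day 30 (12.5%), 7 for day 30 against day 7 in DEX (21%), 1 in BSS (1.88%), and 3 for the change of the DEX effect (9.47%). Over all probe sets it called 5200 for DEX against BSS at day 30, where the unweighted fit called 0. Leaving out 1 array gave 0 to 1 calls for DEX against BSS at day 30, 0 to 4 for DEX against TAA at day 30 and 0 to 3 for day 30 against day 7 in DEX, the highest each time without DEX day 30 replicate 3, a fit that called 5.31%, 8.01% and 7.41% of all probe sets in these comparisons. The number above 0 for TAA against BSS at day 30 was 9, and 5 with weights and 6 to 14 without 1 array, the lowest when TAA day 30 replicate 2 was left out and the highest when replicate 1 of that group was. For day 30 against day 7 in TAA it was 8, and 4 with weights, 4 with arrays scaled to equal spread, 4 without the 2 widest arrays (a setting chosen after seeing the data) and 4 to 12 without 1 array. At day 7 it stayed at 20 to 25 for DEX and 21 to 25 for TAA without 1 array. The cause of these shifts was not tested. None of the 45 differences of unadjusted p under 0.05 turned its sign in any setting. They were picked for their small p in these same data, so a steady sign is no separate evidence for them. Over all 28 probe sets, 190 of 2184 differences changed sign without 1 array, and 45 of 308 with weights. The replicate numbers did not meet the criterion for pairing, a correlation above 0.1 in every same-number pair: 16 of 45 such pairs passed it, beside 19 of 90 pairs of different number. Yet 13 of 18 arrays correlated best with their own number, a hint from the data and not from the design. The replicate block called 0 probe sets in every comparison (smallest adjusted p 0.0589). The fits of the compared groups alone, of 1 probe set per gene, of the mean per gene, of probe sets of higher interquartile range and with robust moderation also called 0. Precision is limited by 3 arrays per group, and signal over background cannot be read from centred values.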
